A study of Mus musculus with 2 samples.

Results

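The genes described here are the semaphorins and their plexin receptors, the ephrins and their Eph receptors, and the netrins with their UNC5 receptors, as measured in single cells of the mouse mammary gland. They were chosen by symbol, which matched 58 genes, and 51 of these had at least 20 UMIs (unique molecules counted) over both libraries, among 16618 genes of 31053 that did. The 51 genes were 19 semaphorins (7 of class 3, 5 of class 4, 2 of class 5, 4 of class 6 and 1 of class 7), 8 plexins, 5 ephrin-A and 3 ephrin-B ligands, 6 EphA and 5 EphB receptors, 2 netrins and 3 UNC5 receptors. The 7 genes under 20 UMIs were Epha6, Epha8, Epha10, Ntn5, Plxnb3, Sema4f and Unc5d, with 0 to 16 UMIs each. The cells came from C57BL/6 mice and were sorted as CD24highCD29+. There were 2 libraries, 1 with the genotype label WT and 1 with the genotype label Fgd5-ko, whose title adds cko, commonly short for conditional knockout. The sources used here do not say in which cell type or in which exons Fgd5 was deleted, how many animals were used or how old they were, or what P4 in the titles means.

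Guidance proteins tell a moving or settling cell where its neighbours are. Semaphorins are secreted or membrane-bound ligands that act through plexins, and most class 3 members also need a neuropilin co-receptor. Ephrins are tethered to the cell surface and bind Eph receptor tyrosine kinases on a touching cell, with signals passing both ways, whereas netrins are laminin-related secreted proteins read by DCC, neogenin and the UNC5 family. The same families shape blood and lymphatic vessels, and in the mammary gland netrin and neogenin have been described at the contact of the cap cell and luminal layers of the growing duct.

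The library labelled WT held 60566053 UMIs in 10735 barcodes and the library labelled Fgd5-ko 136697801 in 8798. The authors' table of cells listed 6588 and 6064 of these barcodes, and their cells had 4954 and 15712 UMIs at the median. The libraries shared 34 barcode sequences, 18 of them among listed cells. Fgd5, the gene named in the label and an exchange factor for the small GTPase Cdc42, went against its label. In basal-like cells it had 30 UMIs, or 0.841 CPM (UMIs scaled to the class total, per 1000000), in the library labelled WT and 419 UMIs, or 4.05 CPM, in the library labelled Fgd5-ko. Tags at the 3′ end of a transcript do not check a deletion elsewhere in the gene, so directions below compare the library labelled Fgd5-ko with the library labelled WT and not genotypes. With 1 library per group no difference could be tested, and all intervals are exact 95% intervals for counting error only.

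Cells were grouped into classes without using the guidance genes or their partners. Basal-like cells made up 96.5% (6357) of the listed cells in the library labelled WT and 99.4% (6029) in the library labelled Fgd5-ko, and all 12 basal markers were detected in both. The other classes were drawn from all barcodes, within or outside the authors' table. They were 1029 and 555 fibroblast-like cells, 1279 and 275 endothelial-like cells, 75 and 33 pericyte and vascular smooth muscle-like cells, and 54 and 23 Schwann-like cells, giving the library labelled WT first, as below. Luminal progenitor-like cells (146 and 23) and hormone-sensing luminal-like cells (113 and 10) were few. Levels are CPM of the UMIs summed over a class, where each molecule gives 1 tag at its 3′ end whatever its length.

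Guidance genes were found in every class, and vessels stood out. A gene was called led by a class where its CPM was at least 2-fold that of every other class with at least 50 cells, in both libraries. Endothelial-like cells led 11 of the 51 guidance genes (21.6%), whereas they led 3.44% of all genes. Fibroblast-like cells led 4 (7.84%, against 3.66% of all genes) and basal-like cells led 2 (3.92%, against 3.18%). In all, 17 guidance genes had a leading class, as did 10.3% of all genes, and no class led the other 34. In the library labelled Fgd5-ko only 3 classes (basal-like, fibroblast-like and endothelial-like) had 50 cells, so a lead over the other classes rests on the library labelled WT.

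**Figure D1:**
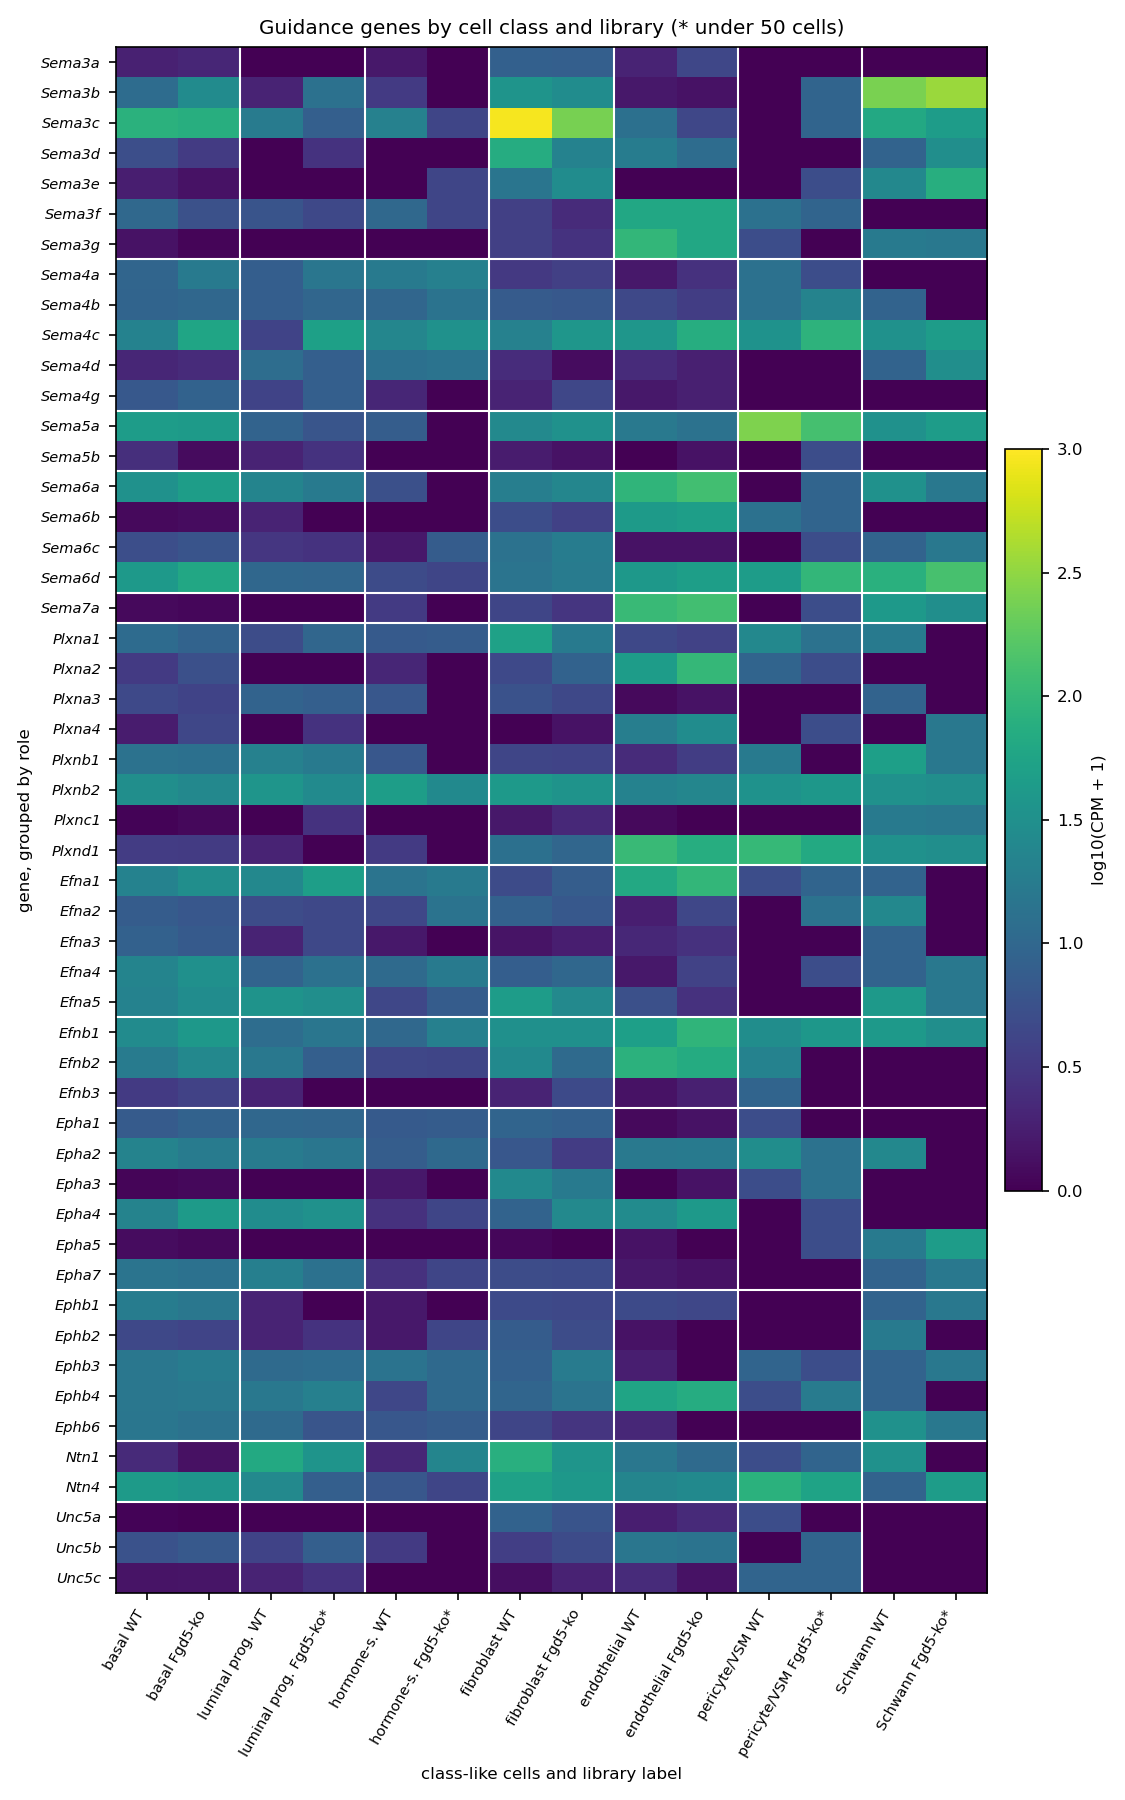
Levels of the 51 guidance genes (lines, grouped by role) in 7 cell classes and both libraries (columns), with colour showing log10(CPM + 1) and an asterisk marking classes under 50 cells. The brightest field is Sema3c in fibroblast-like cells of the library labelled WT (898 CPM), and the endothelial-like columns are bright for 11 genes that they lead.

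Of the ligands led by endothelial-like cells, Sema7a, a GPI-anchored semaphorin, was at 107 CPM in the library labelled WT and 121 CPM in the library labelled Fgd5-ko. Sema3g, a secreted semaphorin, was at 96.1 and 61.9 CPM and Sema6a, a membrane-bound ligand of the A plexins, at 90.5 and 124 CPM. These levels were 2.67 to 64.1 times those of the next class. Efnb2, the ephrin that marks arteries in the embryo, was at 83.7 and 68.6 CPM. Efna1 was at 63.2 and 96.8 CPM, Sema3f at 62.05 and 61.9 CPM, and Sema6b at 42.5 and 46.5 CPM. The receptors led by endothelial-like cells were Ephb4, the partner of ephrin-B2 on veins, at 54.9 and 70.2 CPM, and Plxna2 at 44.3 and 98.5 CPM. Plxna4 (18.2 and 27.8 CPM) and Unc5b (14.1 and 12.9 CPM), a netrin receptor of sprouting vessels, completed the 11. Plxnd1, the vascular plexin, was as high in pericyte-like cells (102 and 66.3 CPM) as in endothelial-like cells (105.5 and 72.3 CPM) and so was led by neither.

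Fibroblast-like cells led Sema3c, a secreted class 3 semaphorin, with 898 CPM in the library labelled WT (876 to 921) and 240.5 CPM in the library labelled Fgd5-ko (229 to 252). That was 11.0 and 3.21 times the level of basal-like cells, the next class. Sema3a, a secreted collapse signal for growth cones, was at 7.40 and 7.01 CPM there, the receptor Plxna1 at 50.4 and 16.3 CPM, and the receptor Epha3 at 25.3 and 16.4 CPM. Plxna1 lay just past the 2-fold limit, at 2.06 and 2.04 times the next class. The genes led by basal-like cells were Efna4, an ephrin-A ligand, at 21.6 and 30.8 CPM, and Ephb1, an ephrin-B receptor, at 17.35 and 14.6 CPM.

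Some other genes were high in small classes and are named after their values were seen. Sema3b, a secreted semaphorin, had 31 UMIs (248 CPM, 169 to 352) in 54 Schwann-like cells of the library labelled WT and 24 UMIs (357 CPM, 229 to 531) in 23 of the library labelled Fgd5-ko. Sema5a, a semaphorin with thrombospondin repeats, was at 265 and 128 CPM in pericyte and vascular smooth muscle-like cells. Netrin-1 (Ntn1) had 76.6 and 35.6 CPM in fibroblast-like cells and 65.5 and 35.0 CPM in luminal progenitor-like cells, but 1.26 and 0.377 CPM in basal-like cells. Netrin-4 (Ntn4), a basement membrane netrin, had 81.5 and 53.9 CPM (20 and 13 UMIs) in pericyte and vascular smooth muscle-like cells. Fibroblast-like cells had 51.0 and 39.2 CPM of it and basal-like cells 42.0 and 35.7 CPM.

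Droplets hold free RNA, so the levels of vessel and fibroblast genes in basal-like cells were set beside those of marker genes. The 10 endothelial markers together reached in basal-like cells 0.266% and 0.135% of their level in endothelial-like cells, and the 8 fibroblast markers 0.853% and 1.09% of theirs in fibroblast-like cells. Sema3g (0.408% and 0.156%), Sema7a (0.183% and 0.0959%) and Epha3 (0.442% and 0.9998%) lay near or under these marker shares, called the background level below. Free RNA itself was not measured and was not told apart from doublets. Sema6b (0.461% and 0.582%) lay above the marker shares, from 7 and 28 UMIs in basal-like cells. Sema6a (35.7% and 36.6%), Efna1 (32.4% and 30.4%), Unc5b (33.0% and 45.5%), Ephb4 (26.1% and 21.9%) and Efnb2 (20.2% and 34.9%) lay far above them, as did Sema3c (9.06% and 31.2%). Plxna1, Plxna2, Plxna4, Sema3a and Sema3f lay between 3.86% and 49.0%, also above the markers of their leading class.

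The endothelial-like cells were split by their own markers into arterial-like (210 and 16 cells), capillary-like (720 and 197), venous-like (153 and 29), high endothelial venule-like (156 and 20) and lymphatic-like (40 and 13) subsets. The last 2 shared markers. Ccl21a, a chemokine in the marker lists of both, was at 18480 and 10490 CPM in high endothelial venule-like cells and at 20800 and 21960 CPM in lymphatic-like cells. Glycam1, a mucin of high endothelial venules, was at 34870 CPM in lymphatic-like cells of the library labelled WT and at 33.9 CPM in those of the library labelled Fgd5-ko, against 292900 and 220100 CPM in high endothelial venule-like cells. Prox1, which defines lymphatic vessels, was at 473 and 587 CPM in lymphatic-like cells and at 4.47 and 3.29 CPM in high endothelial venule-like cells. The part of this overlap in the levels below was not tested. Of 27 guidance genes with 20 UMIs in the class, 6 were led by the same subset in both libraries, and 7.32% of all genes were. Sema3g was the arterial gene, with 527 CPM (469 to 590) and 412 CPM (303 to 548) in arterial-like cells. It was at 83.8 and 79.9 CPM in capillary-like cells, and no UMI of it was found in high endothelial venule-like or lymphatic-like cells, where the 3 counts that a count of 0 allows come to 1.91 to 33.9 CPM. Efnb1 was led by capillary-like cells, with 71.8 and 127 CPM. Lymphatic-like cells led Sema3d, a secreted semaphorin, with 473 and 226 CPM against at most 5.74 CPM elsewhere. They also led Ntn1 (166 and 181 CPM), the receptor Plxna4 (67.6 and 135 CPM), and Ephb1, which had 3 UMIs there in all.

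The arterial and venous pair of ephrin-B2 and EphB4 was graded. Efnb2 was at 168 and 175 CPM in arterial-like cells, 119 and 97.4 CPM in capillary-like cells, 45.9 and 26.2 CPM in venous-like cells and 7.02 and 6.58 CPM in high endothelial venule-like cells. Ephb4 ran the other way between arteries and veins, with 61.3 and 35.1 CPM in arterial-like cells and 117.5 and 108 CPM in venous-like cells. In high endothelial venule-like cells both were low, Ephb4 being at 16.6 and 29.6 CPM. Lymphatic-like cells had Efnb2 at 147 and 113 CPM beside Ephb4 at 86.0 and 90.3 CPM, so neither gene was limited to 1 kind of vessel. Sema7a was highest in capillary-like cells (180.5 and 181 CPM) and had 0 and 5 UMIs in venous-like cells. Unc5b had no UMI in venous-like cells of either library (up to 5.51 and 8.72 CPM allowed), while it was at 26.3 and 26.3 CPM in arterial-like cells.

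**Figure D2:**
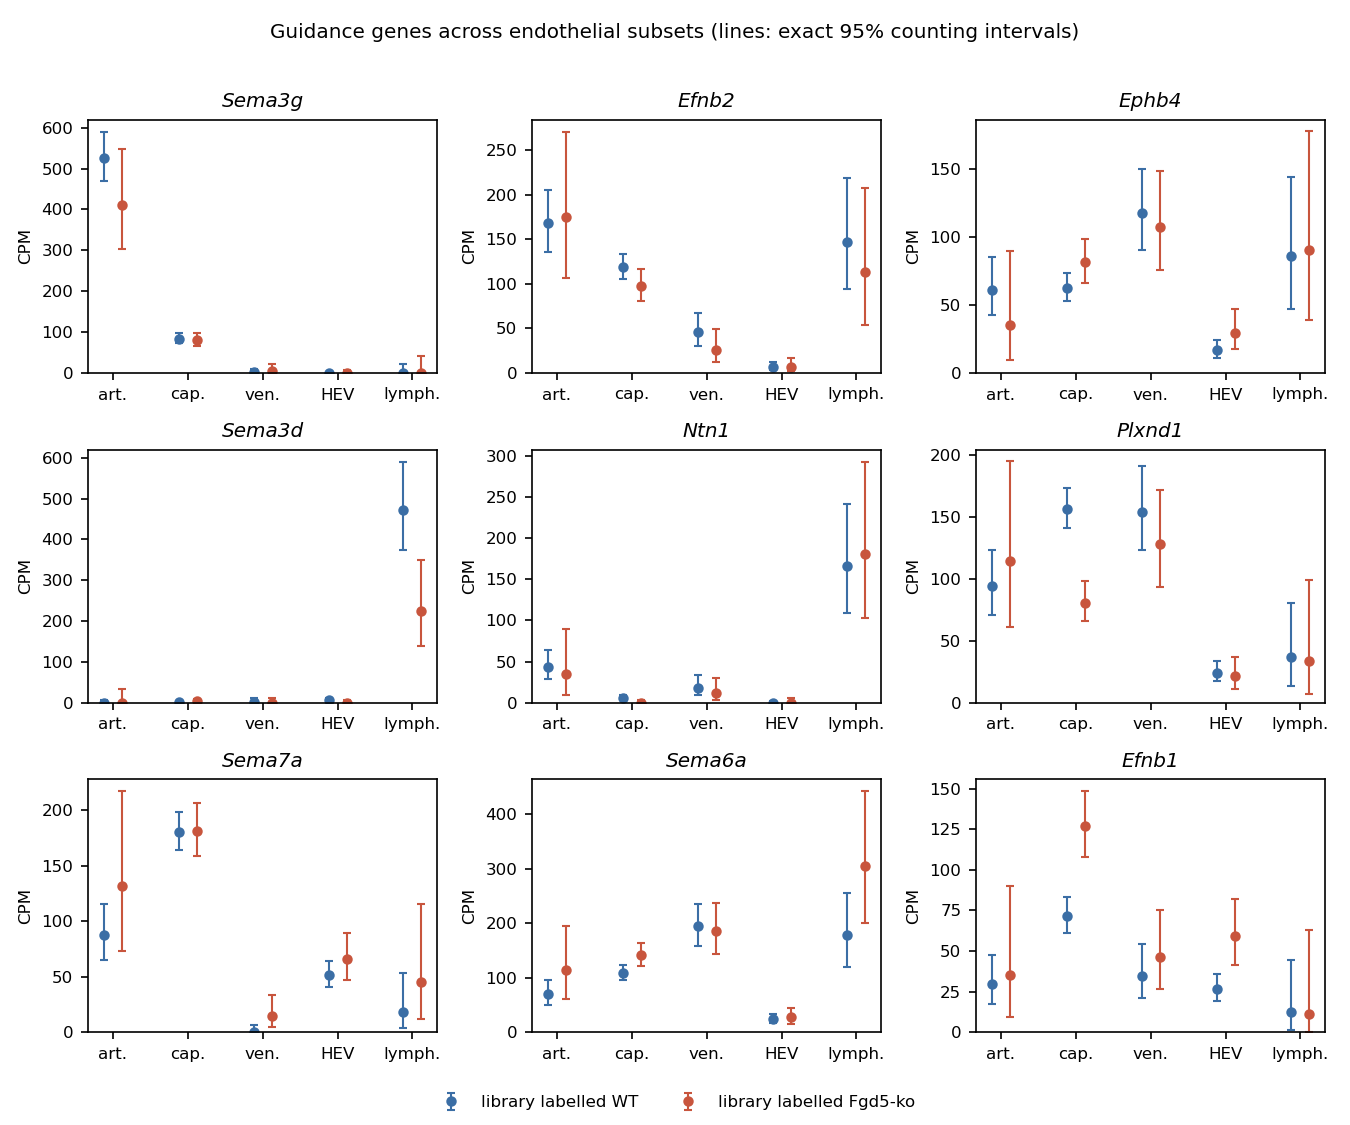
Level in CPM of 9 guidance genes in arterial-like (art.), capillary-like (cap.), venous-like (ven.), high endothelial venule-like (HEV) and lymphatic-like (lymph.) endothelial cells, as points for each library with exact 95% counting intervals. Sema3g is highest in arterial-like cells, Sema3d and Ntn1 in lymphatic-like cells, and Efnb2 and Ephb4 run in opposite order between arterial-like and venous-like cells in both libraries.

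The stretch upstream of the RefSeq transcript start was read for 44 of the 51 genes from the RefSeq promoter table of build GRCm38.p6, and 3 are printed because their genes carry the patterns by vessel and by basal cluster. Sema3g lies at chr14:31217860-31230352 on the plus strand and Efnb2 at chr8:8617434-8661242 on the minus strand (GENCODE M21, GRCm38). The stretch of Sema3g is chr14:31217623-31217859, that of Efnb2 chr8:8661243-8661492, and that of Ntn4, on the plus strand, chr10:93640799-93641048. The last lies upstream of the RefSeq start but inside the GENCODE gene, which spans chr10:93640681-93747207. Each is written from 5′ to 3′ along its gene's strand and holds no annotated exon base, and capitals mark each GC box (GGGCGG, or CCGCCC on the other strand). The GC box was searched after the sequences had been seen.
Sema3g: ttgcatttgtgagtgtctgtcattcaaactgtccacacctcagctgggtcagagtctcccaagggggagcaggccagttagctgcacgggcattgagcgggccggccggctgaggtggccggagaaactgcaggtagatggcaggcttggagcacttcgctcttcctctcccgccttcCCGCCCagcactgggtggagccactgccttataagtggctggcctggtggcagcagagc
Efnb2: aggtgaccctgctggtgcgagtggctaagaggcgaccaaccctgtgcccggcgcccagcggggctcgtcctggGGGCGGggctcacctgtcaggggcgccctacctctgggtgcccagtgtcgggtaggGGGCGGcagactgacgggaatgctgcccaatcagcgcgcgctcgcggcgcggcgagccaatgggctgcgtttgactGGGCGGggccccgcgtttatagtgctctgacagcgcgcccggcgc
Ntn4: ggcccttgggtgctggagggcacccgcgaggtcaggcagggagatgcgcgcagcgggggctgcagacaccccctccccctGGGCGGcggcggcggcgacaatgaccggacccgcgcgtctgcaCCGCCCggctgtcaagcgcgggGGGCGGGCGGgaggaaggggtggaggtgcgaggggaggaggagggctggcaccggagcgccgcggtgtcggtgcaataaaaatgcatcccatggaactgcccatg
Within 250 bases upstream, the GC box, read on both strands, was found in all 8 genes led by endothelial-like cells that had a promoter in the table (Efna1, Efnb2, Ephb4, Plxna2, Sema3g, Sema6b, Sema7a and Unc5b). It was found in 34 of the 44 guidance genes and in 32.7% of the 32851 promoters of the table. The letters CCGGAAG of an ETS site were in none of those 8, in 2 of 44 guidance genes and in 6.91% of all promoters, and TGGGAA, the core bound by RBPJ, was in none of the 8, in 8 of 44 and in 21.6%. The AP-1 letters TGANTCA were in none of the 8, in 2 of 44 and in 6.75%. Each guidance gene was read from a single promoter, whereas the shares of the table count every promoter it lists, so the sets are unlike. These matches describe the letters of this window and not the binding of a factor.

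In basal-like cells, the sorted class, 48 guidance genes had at least 20 UMIs. Of these, 7 were at least 1.5-fold higher in the library labelled Fgd5-ko, where 26.9% of all 15060 genes were, and 6 were at least 1.5-fold lower, where 10.5% of all genes were. The other 35 lay within 1.5-fold. Among cells of 4000 to 12000 UMIs (4452 and 1572 cells), where depth was more alike, 6 of 44 guidance genes were higher, where 23.7% of all genes were, and 4 were lower, where 10.8% were. Of these only Sema4c and Plxna4 were also among the 7 higher, and Sema3d, Sema3e and Sema5b among the 6 lower, over all basal-like cells. The median log2 ratio of the guidance genes was 0.14 beside 0.23 for all genes. The members higher over all basal-like cells were 1 class 3, 2 class 4 and 1 class 6 semaphorins, 2 plexins and 1 EphA receptor. Those lower were 4 class 3 semaphorins, 1 class 5 semaphorin and 1 netrin.

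The highest guidance gene of basal-like cells was a semaphorin, Sema3c (chr5:17574281-17730268), with 81.4 CPM in the library labelled WT (78.5 to 84.4) and 74.98 CPM in the library labelled Fgd5-ko (73.3 to 76.7). Sema5a (chr15:32244810-32696341) was at 44.1 and 42.5 CPM. Neither differed by 1.5-fold, the log2 ratios being -0.12 (-0.18 to -0.06) and -0.05 (-0.14 to 0.03). Sema6d (chr2:124089969-124667770), a membrane-bound class 6 ligand, was at 40.7 and 62.5 CPM, with a log2 ratio of 0.62 (0.54 to 0.70) that lay just past 1.5-fold. Scaling by TMM (0.40) or by the median ratio (0.39) brought it back within 1.5-fold, as did the range of 4000 to 12000 UMIs (0.44).

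The class 4 semaphorins, which are membrane-bound ligands read mainly by B plexins, included the largest difference among guidance genes averaging 5 CPM or more. Sema4c (chr1:36548639-36558349), a ligand of plexin-B2, had 725 UMIs (20.3 CPM) in the library labelled WT and 5823 UMIs (56.3 CPM) in the library labelled Fgd5-ko. This log2 ratio of 1.47 (1.36 to 1.58) changed little with depth: among cells of 4000 to 12000 UMIs it was 1.39 (19.7 and 51.6 CPM). Sema4a (chr3:88435959-88461182) was at 8.46 and 16.1 CPM, a log2 ratio of 0.93 (0.75 to 1.11) that was 0.46 in the range of 4000 to 12000 UMIs. Sema4b, Sema4d and Sema4g lay within 1.5-fold.

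Of the 7 class 3 semaphorins, 4 were lower in the library labelled Fgd5-ko, where 10.5% of all genes were, and 1 was higher, where 26.9% were. Sema3f (chr9:107681500-107710475) was at 9.30 and 4.62 CPM, a log2 ratio of -1.01 (-1.22 to -0.80) that was -0.43 among cells of 4000 to 12000 UMIs. The other lower members were near or under 4 CPM. Sema3d was at 4.20 and 2.33 CPM, Sema3e at 0.785 and 0.406 CPM, and Sema3g had 14 and 10 UMIs, at the background level given above. Sema3b (chr9:107597674-107609229) was the higher one, with 10.5 CPM (374 UMIs) and 27.3 CPM (2822 UMIs) and a log2 ratio of 1.38 (1.22 to 1.54). Among cells of 4000 to 12000 UMIs Sema3b was at 9.41 and 10.6 CPM, a log2 ratio of 0.17 (-0.13 to 0.46), so depth moved with this difference. Between the 25th and 75th percentile of UMIs of each library its log2 ratio was 2.33, and in basal-like barcodes outside the authors' table it was 0.26. Sema5b, of class 5, had 55 UMIs (1.54 CPM) and 22 UMIs (0.213 CPM), a log2 ratio of -2.86 (-3.64 to -2.12).

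Among the plexin receptors, Plxna2 (2.21 and 4.33 CPM) and Plxna4 (0.701 and 3.30 CPM) were past 1.5-fold and higher, from low levels. Plxna2 was at 2.27 and 2.20 CPM among cells of 4000 to 12000 UMIs, whereas Plxna4 was at 0.586 and 6.53 CPM there. Plxnb2, the most abundant plexin of basal-like cells, was at 29.6 and 24.0 CPM and Plxna1 at 10.1 and 7.99 CPM. These and 3 other plexins lay within 1.5-fold.

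Most ephrins and Eph receptors were within 1.5-fold over all basal-like cells, where 26.9% of all genes were higher, 10.5% were lower and the others lay within it. All 5 ephrin-A and all 3 ephrin-B ligands lay within 1.5-fold, with log2 ratios from -0.31 (Efna3) to 0.52 (Efna1). Among cells of 4000 to 12000 UMIs, Efnb3 was past 1.5-fold, with 54 UMIs (1.98 CPM) and 65 UMIs (4.47 CPM) and a log2 ratio of 1.18 (0.63 to 1.72). All 5 EphB receptors lay within 1.5-fold as well, from -0.25 (Ephb1) to 0.27 (Ephb3). Epha4 (chr1:77367185-77515088), a receptor for ephrins of both classes, was the exception among 6 EphA receptors. It had 742 UMIs (20.8 CPM) and 4409 UMIs (42.6 CPM), a log2 ratio of 1.035 (0.92 to 1.15) that was 0.55 among cells of 4000 to 12000 UMIs, just under 1.5-fold. Epha2, a receptor of ephrin-A1, was at 20.7 and 16.7 CPM.

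The netrins of basal-like cells were almost wholly Ntn4. It was at 42.0 CPM (1497 UMIs) and 35.7 CPM (3691 UMIs), a log2 ratio of -0.23 (-0.32 to -0.15). Among cells of 4000 to 12000 UMIs the direction was the opposite, with 38.8 and 89.4 CPM and a log2 ratio of 1.20 (1.08 to 1.32). Ntn1 had 45 UMIs (1.26 CPM) and 39 UMIs (0.377 CPM), a log2 ratio of -1.74 (-2.40 to -1.09) that was 0.01 among cells of 4000 to 12000 UMIs. Unc5b was at 4.65 and 5.86 CPM (4.58 and 7.08 CPM among cells of 4000 to 12000 UMIs), Unc5c under 0.5 CPM in both libraries, and Unc5a had 2 and 1 UMIs.

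**Figure D3:**
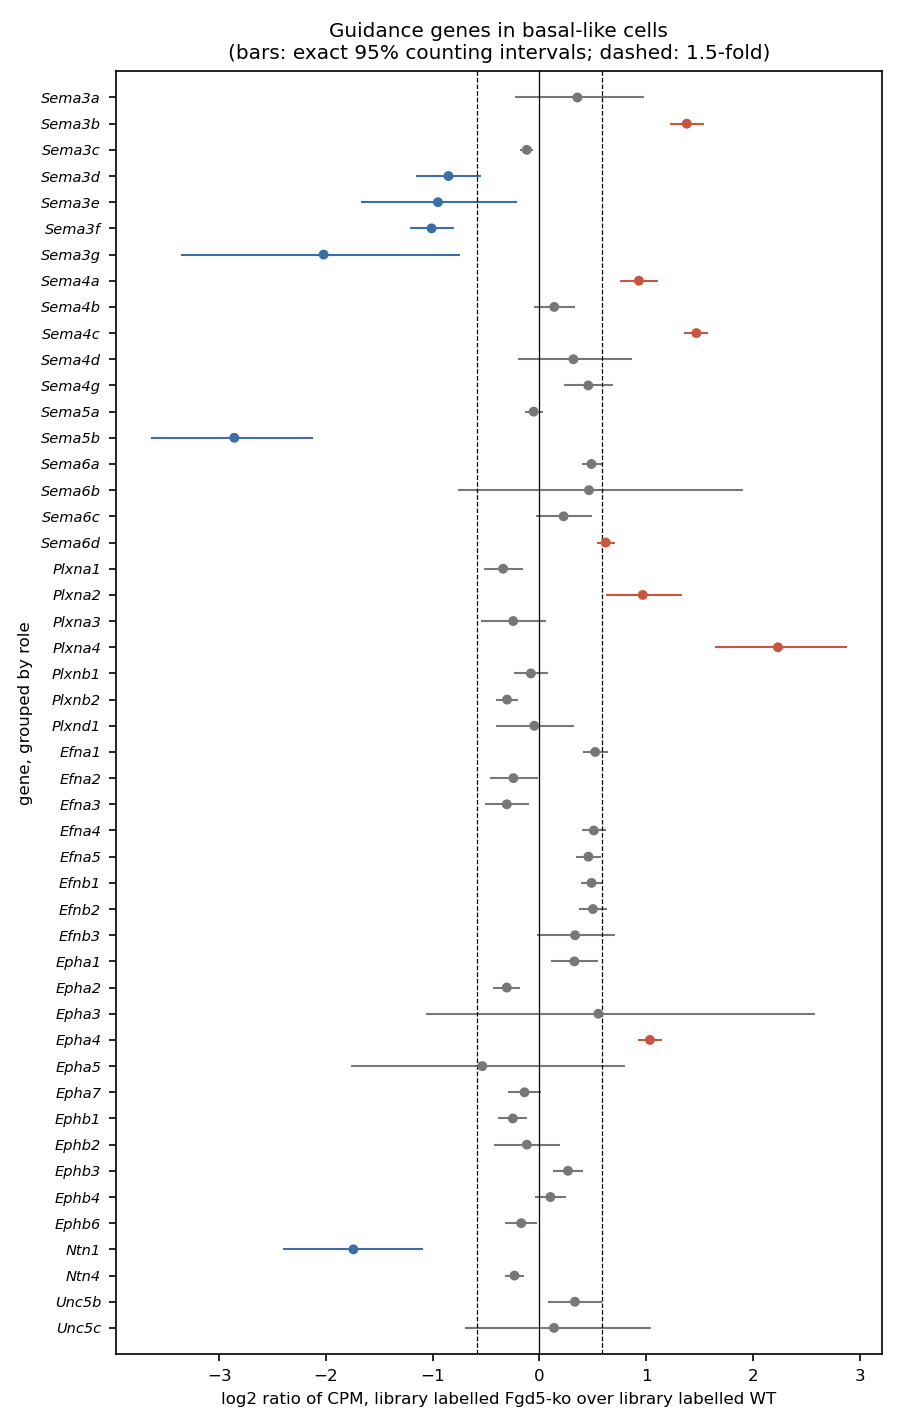
Log2 ratio of CPM in basal-like cells, library labelled Fgd5-ko over library labelled WT, for the 48 guidance genes with at least 20 UMIs (points, with exact 95% counting intervals and dashed lines at 1.5-fold). The 7 points past the right line are Sema3b, Sema4a, Sema4c, Sema6d, Plxna2, Plxna4 and Epha4. The 6 past the left line are Sema3d, Sema3e, Sema3f, Sema3g, Sema5b and Ntn1. Of all genes, 26.9% were at least 1.5-fold higher and 10.5% at least 1.5-fold lower.

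Within the basal-like class, Sema3b and Ntn4 varied between clusters in both libraries. Clusters were built without the guidance genes, 4 with at least 100 cells in the library labelled WT and 6 in the library labelled Fgd5-ko, and none held 100 cells of both. Of 30 guidance genes averaging 5 CPM or more, 2 differed 3-fold or more between the highest and the lowest cluster in both libraries, where 5.4% of all such genes did. In the library labelled WT alone 11 of the 30 did, where 16.3% of all such genes did. In the library labelled Fgd5-ko, 2 of the 30 did, where 9.44% of all such genes did. Epha7 (3.75 to 21.0 CPM), Epha2 (4.62 to 24.9 CPM), Ephb1 (3.75 to 19.8 CPM), Sema6d (11.3 to 55.9 CPM) and Sema4g (0 to 14.2 CPM) varied more than Ntn4 in the library labelled WT. These lows rest on few counts. That of Epha2 was 10 UMIs in cluster 6, and the others were in cluster 9, of 129 cells. In the library labelled WT, Sema3b was at 49.8 CPM in cluster 5 (791 cells) and at 1.51, 3.23 and 4.69 CPM in clusters 0, 6 and 9. Cluster 5 thus held 320 of the 374 Sema3b UMIs of this library. In the library labelled Fgd5-ko, Sema3b was at 27.7, 27.8, 25.5, 43.25 and 52.4 CPM in clusters 1, 2, 4, 7 and 8, and at 3.07 CPM in cluster 3 (1024 cells).

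Netrin-4 broadly ran the other way. In the library labelled WT it was at 48.8 and 56.3 CPM in clusters 0 and 6, and at 13.1 CPM in cluster 5. In cluster 9 of that library Ntn4 lay below clusters 0 and 6, although Sema3b was low there too. Cluster 3 of the library labelled Fgd5-ko had 127 CPM (121 to 134) and the other clusters 13.6 to 30.55 CPM. Ntn4 was itself among the leading genes of cluster 3, beside Ankrd1 and Serpina3n. Sema3a, at lower counts, went with Sema3b. It was at 4.20 CPM in cluster 5 and 0.116 CPM in cluster 0 of the library labelled WT, and at 3.74 CPM in cluster 8 and 0.166 CPM in cluster 3 of the library labelled Fgd5-ko. Sema3c differed little, from 70.4 to 87.0 CPM and from 60.1 to 85.5 CPM over the clusters. Sema4c was at 11.3 to 21.8 CPM in the clusters of the library labelled WT and at 30.7 to 78.0 CPM in those of the library labelled Fgd5-ko, so the clusters did not overlap between libraries.

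Depth and other cell types' markers moved with some of these patterns. Cells of cluster 5 had a median of 7716 UMIs against 4839 in cluster 0, and cells of clusters 8 and 7 had 28042 and 21251 against 10304 in cluster 3. The 8 fibroblast markers summed to 526 CPM in cluster 5 and 150 CPM in cluster 0, and to 423, 412 and 126 CPM in clusters 8, 7 and 3. Sema3b itself had 35.0 and 27.8 CPM in fibroblast-like cells. Clusters 7 and 8 were led by cell-cycle and histone genes, and without them the log2 ratio of Sema3b in basal-like cells was 1.20. The 10 endothelial markers summed to 180 CPM in cluster 9 (129 cells) and to 8.35 to 14.8 CPM in the others. In cluster 9 Sema3g was at 9.38 CPM (10 of the 14 UMIs of basal-like cells in its library) and Efnb2 at 46.0 CPM. The part of depth and of these markers in the differences between clusters was not tested.

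**Figure D4:**
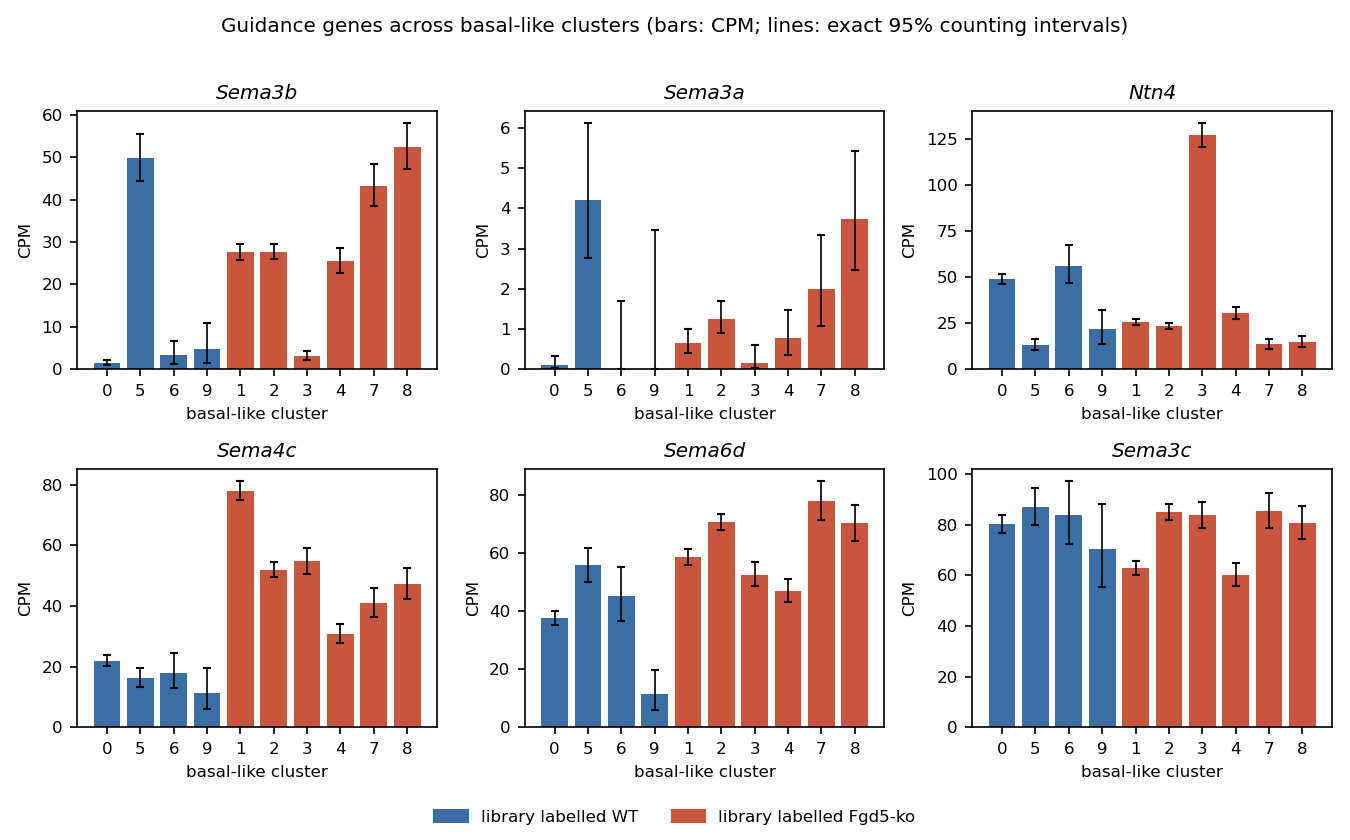
Level in CPM (bars, with exact 95% counting intervals) of 6 semaphorins and netrins in the basal-like clusters with at least 100 cells, coloured by library. Sema3b and Sema3a are high where Ntn4 is low (cluster 5 and clusters 7 and 8), and cluster 3 shows the reverse. Sema4c is higher in every cluster of the library labelled Fgd5-ko than in any of the library labelled WT, as are Epha4 and Efna1, which are not drawn. The share of all genes that do so was not counted.

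The same ratio was taken in the fibroblast-like and endothelial-like cells. Of 44 guidance genes measured in fibroblast-like cells, 10 were higher, where 18.6% of 12195 genes were, and 14 were lower, where 12.9% were. The median log2 ratio was -0.15 beside 0.05 for all genes. The lower genes included secreted ligands. Sema3c had a log2 ratio of -1.90 (-1.98 to -1.83), and Sema3d, at 71.9 and 20.6 CPM, one of -1.80 (-2.07 to -1.54). Ntn1 had one of -1.11 (-1.32 to -0.89). The receptor Plxna1 (-1.63) and the ligands Efnb2 (25.3 and 9.83 CPM, -1.37) and Efna5 (44.0 and 24.9 CPM, -0.82) were lower too. The higher genes included Epha4 (7.97 and 25.1 CPM, 1.65), Ephb3 (7.40 and 16.8 CPM, 1.19), Sema3e (13.7 and 27.6 CPM, 1.02) and Sema4c (19.8 and 37.2 CPM, 0.91).

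The fibroblast-like class was made of unlike clusters in the libraries, of which 3 held 370 and 1, 264 and 10, and 0 and 206 cells in the library labelled WT and the library labelled Fgd5-ko. The ratio was therefore also taken within the 3 clusters with at least 50 cells of each library, a choice made after seeing the data. Sema3c was at 145 and 26.3 CPM in the cluster of 218 and 188 cells, at 556 and 145 CPM in that of 99 and 59 cells, and at 103 and 69.6 CPM in that of 78 and 91 cells. The cluster of 99 and 59 cells also carried basal markers: its fibroblast score exceeded its basal score by 1.01 on the log2 scale, and at a clustering resolution of 0.5 a cluster of 99 and 60 cells with a margin of 0.99 went unnamed. Sema3c was lower in the library labelled Fgd5-ko in all 3, with log2 ratios of -2.46 (-2.90 to -2.04), -1.94 (-2.18 to -1.71) and -0.57 (-1.21 to 0.09). Plxna1 had log2 ratios of -1.51, -1.66 and -0.85, the last with an interval that spans 0 (-2.50 to 0.92). Ntn1 had ratios of -0.67, -1.32 and -0.41, the last again spanning 0 (-1.11 to 0.33). Epha4 was higher in the first 2 (1.28 and 1.46), and its ratio was 0.10 (-1.04 to 1.37) in the last. Other differences of the class were not seen in each cluster. Efnb2 had ratios of -2.71, -0.12 and 0.57 and Efna5 of -0.28, -0.56 and 0.57. Sema3e had 0 and 1, 11 and 19, and 0 and 3 UMIs, with a ratio of 0.53 (-0.61 to 1.75) where both libraries had counts.

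Of 27 guidance genes measured in endothelial-like cells, 5 were higher, where 19.5% of 10648 genes were, and 4 were lower, where 11% were. The median log2 ratio was 0.05 beside 0.13 for all genes. Plxna2 had a log2 ratio of 1.15 (0.89 to 1.42), Sema4c (36.3 and 72.7 CPM) one of 1.001, Efnb1 (47.75 and 89.75 CPM) one of 0.91, and Efna1 and Plxna4 one of 0.62 each. The lower genes were Sema3c (-1.83, with 61 and 8 UMIs), Efna5 (23 and 4 UMIs), Sema3d (-0.73) and Sema3g (-0.63). The lymphatic-like subset, 40 and 13 cells, held 36 of the 61 Sema3c UMIs in the library labelled WT and none of the 8 in the library labelled Fgd5-ko. In the 2 endothelial-like clusters with at least 50 cells of each library, Sema3g had log2 ratios of -0.25 (-1.26 to 0.69) and -0.18 (-0.98 to 0.61). Plxna2 had ratios of 1.21 and 0.52 in these clusters, and Efnb1 0.50 and 0.80.

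Of 25 guidance genes measured in all 3 classes, Sema4c and Plxna2 were at least 1.5-fold higher in the library labelled Fgd5-ko in each, as were 5.49% of 10071 genes, and Sema3d and Sema3g were at least 1.5-fold lower in each, as were 2.44%. Plxna2 did not hold throughout: its ratio was -0.05 in basal-like cells of 4000 to 12000 UMIs, and 0.21, 1.62 and -0.43 in the 3 shared fibroblast-like clusters, each with an interval that spans 0. Sema4c had ratios of 0.42 (-0.25 to 1.12), 0.80 (0.10 to 1.535) and 2.02 (0.35 to 4.37) in those clusters. In the shared endothelial-like clusters Sema4c had ratios of 0.42 (-0.07 to 0.91) and 0.74 (-0.04 to 1.55), both spanning 0. Sema3g was at the background level in basal-like cells (0.392 and 0.0967 CPM). Its ratios in the shared endothelial-like clusters were -0.25 and -0.18, both spanning 0. Sema3d of endothelial-like cells lay mostly in the small lymphatic-like subset. In the shared fibroblast-like clusters its ratios were -2.38, -2.70 and -0.47, the last spanning 0. The classes of a library share its depth and its sequencing, so these ratios are not independent measurements. Sema3c was lower in fibroblast-like and endothelial-like cells and within 1.5-fold in basal-like cells, and Sema3e was lower in basal-like and higher in fibroblast-like cells, the latter in no shared cluster beyond counting error. Whether the ratios differ between classes could not be tested with 1 library per group.

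**Figure D5:**
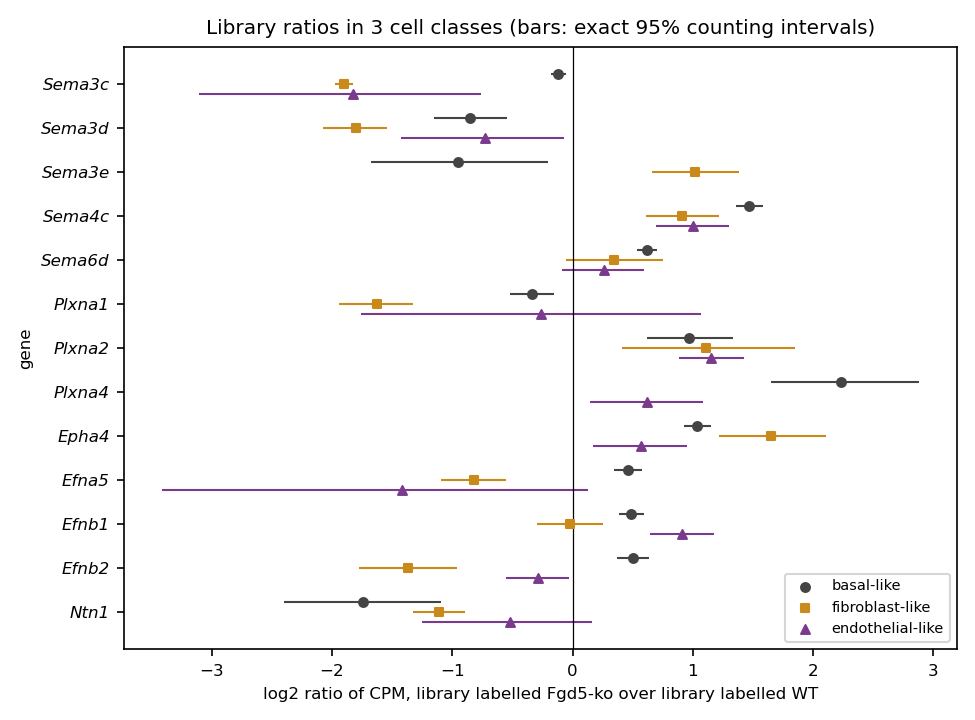
Log2 ratio of CPM, library labelled Fgd5-ko over library labelled WT, for 13 guidance genes in basal-like (circles), fibroblast-like (squares) and endothelial-like (triangles) cells, with exact 95% counting intervals. Sema4c and Plxna2 lie to the right of 0 in all 3 classes, whereas Sema3c lies near 0 in basal-like cells (-0.12) and far to the left in the other classes.

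The partners of the guidance receptors were counted in basal-like cells by the same 1.5-fold rule, by which 26.9% of all genes were higher and 10.5% lower, with a median log2 ratio of 0.23. Of 11 co-receptors and adaptors of semaphorin signalling, 2 were higher and 3 lower, with a median log2 ratio of -0.16. Ptk7, a pseudokinase that binds plexin-A1, was at 84.0 and 46.2 CPM, and the integrin subunit Itgb1 lay within 1.5-fold at 453 and 378 CPM. Neuropilin-1 (Nrp1), the co-receptor of Sema3a, was at 0.392 and 0.387 CPM in basal-like cells but at 310 and 396 CPM in endothelial-like cells. Nrp2 had 4.15 and 7.39 CPM in basal-like cells but 153 and 167.5 CPM in endothelial-like cells.

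Of 24 measured effectors of semaphorins and plexins, 4 were higher and 2 lower (median 0.14), again beside 26.9% and 10.5% of all genes. The collapsin response mediators Dpysl2 (66.3 and 29.05 CPM) and Dpysl3 (67.8 and 106 CPM) went opposite ways. Of 22 measured Eph and ephrin effectors, 4 were higher and 3 lower (median -0.02). They included the exchange factor Vav3 at 34.0 and 59.1 CPM and the adaptor Nck2 at 28.1 and 17.7 CPM. Of 18 measured netrin receptors and partners, 5 were higher and 3 lower (median 0.14). The integrin subunit Itga6, a laminin receptor of basal cells, was at 199 and 317 CPM and the exchange factor Dock1 at 19.0 and 30.1 CPM. The netrin receptor Dcc had no UMI in basal-like cells (up to 0.0841 and 0.0290 CPM allowed), and neogenin (Neo1) was at 25.9 and 33.4 CPM in basal-like cells. Of 7 measured Slit and Robo genes 3 were higher and none lower (median 0.24), and none of the 10 in the list reached a mean of 20 CPM in basal-like cells.

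The class with the highest level of each ligand was set beside that of its textbook receptor for 23 pairs. In 5 pairs both were highest in the same class in both libraries. Efnb2 and Ephb4, Sema6a and Plxna2, and Sema6a and Plxna4 shared endothelial-like cells, while Sema3a and Plxna1, and Ntn1 and Neo1 (87.3 and 54.7 CPM), shared fibroblast-like cells. Other pairs were split between classes in both libraries. Sema3c was highest in fibroblast-like cells and its receptor Plxnd1 in endothelial-like cells, and Ntn1 was highest in fibroblast-like cells and Unc5b in endothelial-like cells. Efnb1 was highest in endothelial-like cells (47.75 and 89.75 CPM) and its receptor Ephb3 in basal-like cells (14.4 and 17.4 CPM). Several of these were near ties in the library labelled WT, with Plxnd1 at 1.04, Ephb3 at 1.13, Ntn1 at 1.17 and Efnb1 at 1.19 times the next class. In the library labelled Fgd5-ko Ephb3 was at 1.03 times the next class. Only basal-like, fibroblast-like and endothelial-like cells were ranked there. No other pairs were counted for comparison.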

How the data were processed

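Polyadenylated RNA of sorted mammary cells was measured in 2 libraries with a 10x 3′ kit of chemistry V3, per the labels' protocols. The authors deposited raw UMI counts for every gene and barcode. Per the file headers the counting software had version 3.1.0. Cell Ranger, Seurat 3.0 and mm9 appear in the submitters' processing notes, with no roles given. Gene IDs matched GENCODE M21 (GRCm38) for 58 of 58 genes, and coordinates are from there, since the files' own build could not be settled. The authors also deposited a table of cells with t-SNE coordinates, scores that were not used. The guidance genes, partner lists and markers were chosen with earlier results of these data known.

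Cells of the authors' table were clustered apart from other barcodes (3490 and 1626) that had 1000 UMIs, 500 genes and no more than 15% of UMIs from mitochondrial genes, and 657 and 1108 barcodes were dropped. Counts were scaled to 10000, logged, and clustered on 2000 variable genes without guidance and partner genes, 30 components and 15 neighbours (Leiden, resolution 1, 0.5 within basal-like cells). A cluster was named from 12 marker lists where the best mean log2(CPM + 1) led by 1, at least 3 of its markers were in 10% of cells and the top 10 genes did not favour another class. These limits were set with the data in view. No doublet caller was run, so doublets remain. Basal-like cells are those of the authors' table, and the other classes hold all barcodes. Named are Fgd5, the 4 highest basal-like guidance genes, those led by a class, those past 1.5-fold at a mean of 5 CPM, and 2 per partner list at 20 CPM; others were named after their values were seen. CPM have exact Poisson and ratios exact conditional intervals, and a count of 0 allows 3. The ratio and interval functions were tested on simulated data. Tools were Python 3.11.15, scanpy 1.11.5, scikit-learn 1.9.0, leidenalg 0.10.2, SciPy 1.17.1 and, for TMM factors, edgeR 4.0.16 in R 4.3.3.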

Additional observations from a re-analysis of the deposited data

How the results depend on the processing

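No paired analysis was possible because each group has 1 library, and for the same reason no library could be left out. The 6 genes named past 1.5-fold in basal-like cells (Sema4c, Sema3b, Epha4, Sema3f, Sema4a and Sema6d) kept their sign under every alternative run, but among cells of 4000 to 12000 UMIs only Sema4c stayed past 1.5-fold. Of the genes past 1.5-fold there, 2 of 6 higher and 3 of 4 lower were among those of all basal-like cells. Efnb3, Ntn4, Sema6c (0.65) and Unc5b (0.63) were higher and Sema3a (-1.47) lower in this range alone. In the library labelled Fgd5-ko those higher genes were highest, and Sema3a lowest, in cluster 3, so depth and cluster were not told apart. Of the other genes past 1.5-fold, Plxna2 and Ntn1 changed sign among cells of 4000 to 12000 UMIs (-0.05 and 0.01), as did Ntn4 (1.20), which had been within it. Requiring 2-fold left 4 genes higher in basal-like cells (from 7), 6 higher and 7 lower in fibroblast-like cells (from 10 and 14), and 2 higher and 2 lower in endothelial-like cells (from 5 and 4), and 5 genes were led by 1 class at 4-fold (from 17). A minimum of 100 UMIs, which tests fewer genes, left 2 lower in basal-like cells (from 6), 5 higher and 7 lower in fibroblast-like cells, and 2 lower in endothelial-like cells. TMM and median-ratio scaling lowered log2 ratios by 0.22 and 0.23 in basal-like cells and by 0.13 each in endothelial-like cells, where each gave 3 genes higher and 7 lower. Under TMM 17.5% of all genes were higher and 15.9% lower in basal-like cells. Among cells between the 25th and 75th percentile of UMIs 11 guidance genes were higher in basal-like cells, as in barcodes outside the authors' table (chosen after seeing the data), where 4 of the 11 were among the 7. Clusters with 50 cells of each library (also chosen after seeing the data) gave 6 genes higher in fibroblast-like cells and 1 lower in endothelial-like cells. The cause was not tested. The other 45 counts stayed within 1.5 times, which does not say that the genes were the same, and of 90 single-gene values 37 left the counting interval. Genes under 20 UMIs in a class could not be compared at this depth.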
